A study of Homo sapiens with 12 samples.

Results

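The genes described are MCM2, MCM3, MCM4, MCM5, MCM6, MCM7 and MCM10, 7 of 58780 annotated genes, measured in RNA that the J2 antibody had pulled down from NCI-H1944 cells. J2 binds double-stranded RNA, and NCI-H1944 is an established human lung adenocarcinoma line. A gene was measured through the rows of the deposited table that lay in its body on its own strand, 393 of 5254113 rows. A row is a stranded stretch of the genome with a read count in each library. Rows sharing no base with an annotated exon were summed per gene as the main measure, and a second sum added the 13 rows that shared at least 1 exon base.

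The study addressed how dsRNA-forming transcripts depend on type I interferon when MPS1, a kinase of the mitotic checkpoint, is inhibited for a limited time. Cells labelled IFNAR1sg carried a knockout of IFNAR1, a subunit of the type I interferon receptor, and cells labelled SCR had the wild-type genotype. They received BAY-1217389 (MPS1i) at 100 nM or, as its control, DMSO; the drug stayed on for 48 h and was removed before 24 h of further culture. In the third treatment recombinant interferon beta (IFNb) was present at 5 ng/ml in those 24 h, and the labels do not say what these cells had received before. There were 6 groups, each with 2 libraries. The labels do not say whether the IFNAR1sg cells are 1 clone, nor whether libraries of a group came from separate cultures. The p-values thus measure a spread between libraries that may be technical. That spread was estimated largely over all features of a fit, not from the libraries of a single gene alone.

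The MCM2 to MCM7 proteins form the ring that is loaded onto DNA at replication origins and unwinds the double helix in S phase. MCM10 is not part of the ring, but the loaded helicase needs it to start unwinding. The MCM genes are known targets of E2F factors, which switch on replication genes as cells enter the cycle. In bulk samples, fewer cells of a kind and less RNA per cell cannot be told apart. Input RNA was not analysed here, so the amount of a transcript and its double-stranded share cannot be told apart either.

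The promoters of MCM6 and MCM10 are shown because E2F sites and CCAAT boxes are textbook elements of this gene family. They are the 250 bases before the RefSeq start on GRCh38.p14, chr2:135876444-135876693 on the minus strand and chr10:13161308-13161557 on the plus strand. Capitals mark matches to the motifs searched.
MCM6: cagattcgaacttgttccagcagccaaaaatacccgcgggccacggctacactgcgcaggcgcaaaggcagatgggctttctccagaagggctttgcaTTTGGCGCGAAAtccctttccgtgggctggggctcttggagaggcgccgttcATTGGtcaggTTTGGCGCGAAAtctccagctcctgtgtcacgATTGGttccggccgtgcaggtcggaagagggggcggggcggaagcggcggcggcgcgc
MCM10: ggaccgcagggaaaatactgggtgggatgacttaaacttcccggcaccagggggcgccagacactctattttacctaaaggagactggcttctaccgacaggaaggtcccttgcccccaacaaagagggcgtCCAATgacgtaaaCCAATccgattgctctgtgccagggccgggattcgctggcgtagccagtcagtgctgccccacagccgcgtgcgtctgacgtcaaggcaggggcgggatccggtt
The motifs, searched on both strands, were the E2F-type TTTGGCGC, TTTCGCGC, TTTGGCGG and TTTCCCGC and the CCAAT box, CCAAT. The MCM6 window holds TTTGGCGC beginning 152 and 90 bases before the start, each overlapping a TTTCGCGC of the other strand, so its 4 E2F-type matches lie at 2 places; it also holds 2 CCAAT boxes on the other strand. The MCM10 window holds 2 CCAAT boxes on its own strand, 118 and 105 bases before the start, and no match to the 4 E2F-type motifs. Of 35116 promoter windows of this length, 2.83% held at least 1 of the E2F-type motifs and 32.0% a CCAAT box. Windows of 5 of the 7 genes were examined. MCM4 was left out before the search, and no window is given for MCM5. The MCM2 window held 0 E2F-type matches and 0 CCAAT boxes, and the MCM3 window 1 and 3. The MCM7 window at chr7:100101398-100101647 held 2 E2F-type matches and 2 CCAAT boxes, and its other windows held CCAAT boxes only.

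The libraries held 3739443 to 7430687 reads. The 2 SCR IFNb libraries stood apart: reads fell in 295367 and 296843 rows, against 566704 to 935974 rows in the other 10 libraries, and exon-sharing rows took 49.6% and 47.9% of reads, against 33.2% to 39.7% in the others. Interferon-induced ISG15 was called higher with IFNb in SCR cells (2.34 ± 0.27, log2 fold change ± SE, adjusted p = 4.18e-14 by edgeR's quasi-likelihood test, as for all adjusted p-values here) and not in IFNAR1sg cells (0.39 ± 0.26, adjusted p = 0.668). OAS2, another interferon-induced gene, was called higher in IFNAR1sg cells too (4.24 ± 0.63, adjusted p = 6.07e-14). Reads of IFNAR1 in rows sharing no exon base averaged 4.34 ± 0.046 CPM in IFNAR1sg DMSO cells and 4.93 ± 0.42 CPM in SCR DMSO cells (SD, n = 2 each), a measure that does not test an edit in an exon. CPM is the read count scaled to a common library total, with TMM factors. Of 8 lung epithelial markers, KRT8, KRT18, EPCAM and CDH1 passed the filter on low counts. In rows sharing no exon base KRT19 and NKX2-1 had 0 reads, SFTPB had 2 and NAPSA had 45. None of 6 fibroblast and none of 6 immune markers passed the filter.

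In hg38, MCM2 lies at chr3:127598223-127622436 on the plus strand, MCM3 at chr6:52264009-52284881 on the minus strand and MCM4 at chr8:47960185-47978160 on the plus strand. MCM5 lies at chr22:35400063-35425430 on the plus strand, MCM6 at chr2:135839626-135876426 on the minus strand, MCM7 at chr7:100092728-100101940 on the minus strand and MCM10 at chr10:13161554-13211104 on the plus strand. Over all libraries their rows held 31756 reads, of which 25769 lay in the 13 exon-sharing rows and 5987 in the others. Per length, rows sharing no exon base held 28.2 reads per kb in MCM2, 49.3 in MCM10, 52.2 in MCM3, 65.6 in MCM7, 98.3 in MCM6, 118 in MCM5 and 123 in MCM4. All 7 genes passed the filter as such sums, 32 of the 393 rows passed it singly, and 44 rows had no read in any library.

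A few rows held most of the reads. In MCM4 the row chr8:47963040-47963458 in intron 7, which names an AluSz repeat, held 14746 of 15313 reads. In MCM10 the row chr10:13183100-13183233 in intron 8, which names an AluJb repeat, held 4564 of 6154 reads. In MCM5 the fullest row, chr22:35408563-35408969 in intron 6, held 1680 of 5442 reads. Each of these 3 rows begins on the last base of the exon before it. Of the 13 exon-sharing rows, 7 begin on the last base of an exon and 1 ends on the first base of one, and these 8 rows held 23569 of the 25769 exon-sharing reads. The labels and notes do not state how a read lying across such a shared base was assigned. MCM3 and MCM6 had no exon-sharing row. The fullest row of MCM2, chr3:127554992-127598247, is 43256 bases long, shares 25 bases with an exon and runs opposite TPRA1, a gene on the minus strand. It held 1364 of the 2509 reads counted for MCM2, and nearly all of its length lies outside MCM2.

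With MPS1i the sums of MCM5 and MCM10 fell in both genotypes. MCM5, a ring subunit, had 10.4 and 7.58 CPM in SCR MPS1i cells, against 26.2 and 26.3 CPM in SCR DMSO cells. The change was -1.58 ± 0.23 (adjusted p = 9.44e-10). MCM10 had 12.4 and 8.63 CPM in SCR MPS1i cells, against 18.5 and 21.2 CPM in SCR DMSO cells. Its change was -0.95 ± 0.23 (adjusted p = 2.27e-04), but without the second SCR MPS1i library the call was lost (-0.67). Thus 2 of 7 genes were called, both lower, where 43.9% of all 15844 gene sums were called, 22.2% lower and 21.7% higher. The median change of the 7 was -0.20, and that of all gene sums 0.05.

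**Figure D1:**
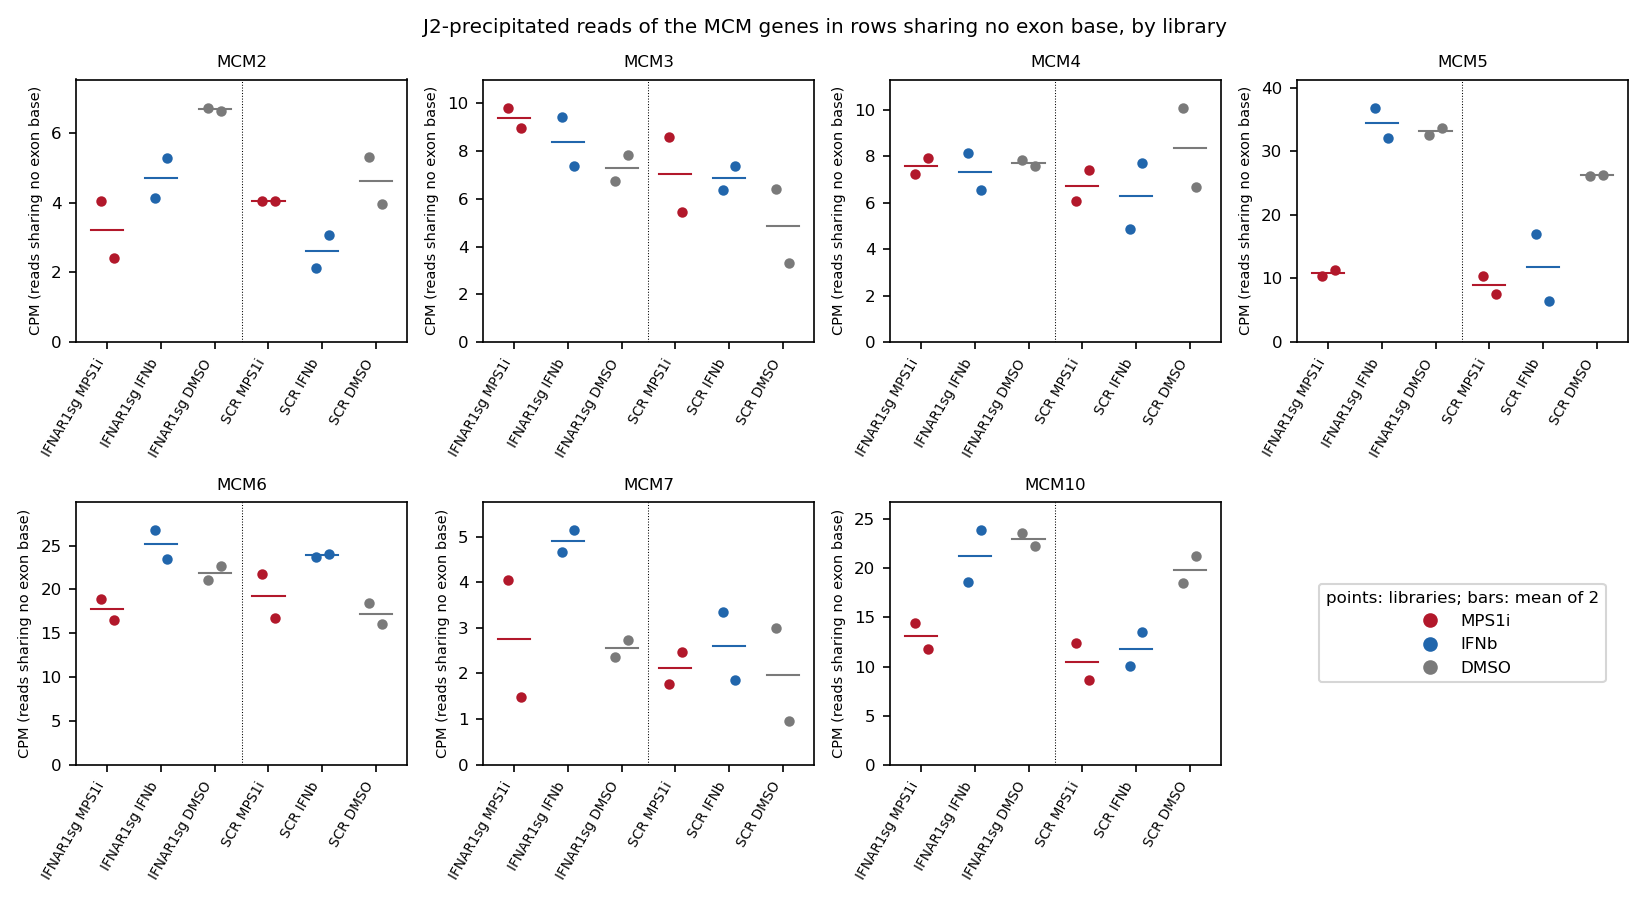
CPM in rows sharing no exon base (vertical axis, from 0) for each of the 7 genes, by group; points are libraries and bars means of 2, with IFNAR1sg groups left of the dotted line and SCR groups right of it. MCM5 lies between 7.58 and 11.4 CPM in the 4 MPS1i libraries, below the 26.2 CPM of the lowest DMSO library.

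The other 5 ring genes gave no call with MPS1i in SCR cells. MCM3 had 8.59 and 5.46 CPM in SCR MPS1i cells and 6.41 and 3.33 CPM in SCR DMSO cells, groups that overlap (0.47 ± 0.32, adjusted p = 0.234). It was called higher only without the first SCR DMSO library (1.07, adjusted p = 0.0412). MCM4 had 6.07 and 7.40 CPM in SCR MPS1i cells and 10.1 and 6.65 CPM in SCR DMSO cells, which also overlap (-0.31 ± 0.30, adjusted p = 0.418). MCM2 gave -0.20 ± 0.39, MCM6 0.14 ± 0.20 and MCM7 0.09 ± 0.54 (adjusted p = 0.696, 0.595 and 0.905). MCM7 had 6 to 22 reads per library in these 4 libraries, and its SE shows that only a large change was detectable.

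In IFNAR1sg cells MCM5 had 10.4 and 11.4 CPM with MPS1i, against 32.6 and 33.6 CPM with DMSO (-1.60 ± 0.20, adjusted p = 4.25e-12). MCM10 had 14.4 and 11.8 CPM with MPS1i, against 23.7 and 22.3 CPM with DMSO (-0.81 ± 0.20, adjusted p = 4.35e-04). MCM2, a ring subunit, had 4.05 and 2.42 CPM with MPS1i, against 6.73 and 6.65 CPM with DMSO (-1.05 ± 0.36, adjusted p = 0.0108), and lost its call without the second IFNAR1sg MPS1i library (-0.73, adjusted p = 0.165). The 4 other genes gave changes between -0.31 and 0.36 with no call, but without TMM factors MCM6 was called lower (-0.44, adjusted p = 0.0373). These 3 calls of 7, all lower, stand beside 46.2% of all gene sums called, 19.7% lower and 26.5% higher, and a median of -0.31 beside 0.15.

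The change with MPS1i in IFNAR1sg minus that in SCR was -0.02 ± 0.30 for MCM5 and 0.14 ± 0.30 for MCM10. By edgeR 0 of 7 genes were called for this difference, 0 had an unadjusted p under 0.05 and DESeq2 called 0, where 1.41% of all gene sums were called. Between untreated genotypes, IFNAR1sg DMSO minus SCR DMSO ranged from -0.13 (MCM4) to 0.57 (MCM3). Here too edgeR called 0 of 7, 0 had an unadjusted p under 0.05 and DESeq2 called 0, where 0.0694% of all gene sums were called. MCM5 had 32.6 and 33.6 CPM in IFNAR1sg DMSO cells and 26.2 and 26.3 CPM in SCR DMSO cells, a difference of 0.34 ± 0.18 (adjusted p = 0.666).

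With IFNb in SCR cells MCM5 and MCM10 fell and MCM6 was called higher. MCM5 had 17.0 and 6.46 CPM in SCR IFNb cells, against 26.2 and 26.3 CPM in SCR DMSO cells (-1.15 ± 0.23, adjusted p = 5.44e-06). The IFNb libraries differed widely from each other, and without the second of them the call was lost (-0.58, adjusted p = 0.0612). MCM10 had 10.0 and 13.5 CPM in SCR IFNb cells, against 18.5 and 21.2 CPM in SCR DMSO cells (-0.75 ± 0.24, adjusted p = 0.00481). Its call was lost without the first SCR IFNb library (-0.52, adjusted p = 0.158) or the second SCR DMSO library (-0.62, adjusted p = 0.0617). Of all gene sums 48% were called, 40.2% lower and 7.81% higher, with a median of -0.61; the 7 genes had 2 lower, 1 higher and a median of -0.43. Without TMM factors all changes in this comparison shift by -0.32, and MCM2 (-1.16, adjusted p = 0.0204) and MCM4 (-0.75, adjusted p = 0.0406) were then called lower as well. MCM2 was also called lower in a fit of only the groups compared (-1.05, adjusted p = 0.0397), and MCM3 was called higher without the first SCR DMSO library (1.11, adjusted p = 0.0376).

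MCM6, a ring subunit, had 23.7 and 24.0 CPM in SCR IFNb cells, against 18.4 and 16.0 CPM in SCR DMSO cells (0.47 ± 0.20, adjusted p = 0.0472). A single row of 30 bases, chr2:135848189-135848218, held 844 of its 1493 reads. This row lies in intron 13, directly before the next exon. How reads reaching from it into that exon were assigned is not stated, so its reads cannot be taken as intronic only. This row had 18.6 and 18.8 CPM in SCR IFNb cells, against 6.82 and 6.97 CPM in SCR DMSO cells (1.43 ± 0.28, adjusted p = 2.98e-05). In IFNAR1sg cells it had 16.8 and 14.3 CPM with IFNb, against 11.3 and 10.0 CPM with DMSO, with no call. The difference between genotypes in its change with IFNb was not called either. The other rows of MCM6 had 5.17 and 5.23 CPM in SCR IFNb cells, against 11.6 and 9.03 CPM in SCR DMSO cells. The row and the remainder of the gene thus moved in opposite directions, and without the row the sum of MCM6 was called lower (-0.99 ± 0.33, adjusted p = 0.00632). The call of the whole sum as higher was also lost without TMM factors (0.15, adjusted p = 0.555), by DESeq2 (0.50, adjusted p = 0.0654), in a fit of only the groups compared (0.25, adjusted p = 0.267) and with no filter (0.47, adjusted p = 0.0841). It was lost without the second SCR DMSO library (0.41, adjusted p = 0.173), the first SCR IFNb library (0.51, adjusted p = 0.102) or the second (0.50, adjusted p = 0.109).

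**Figure D2:**
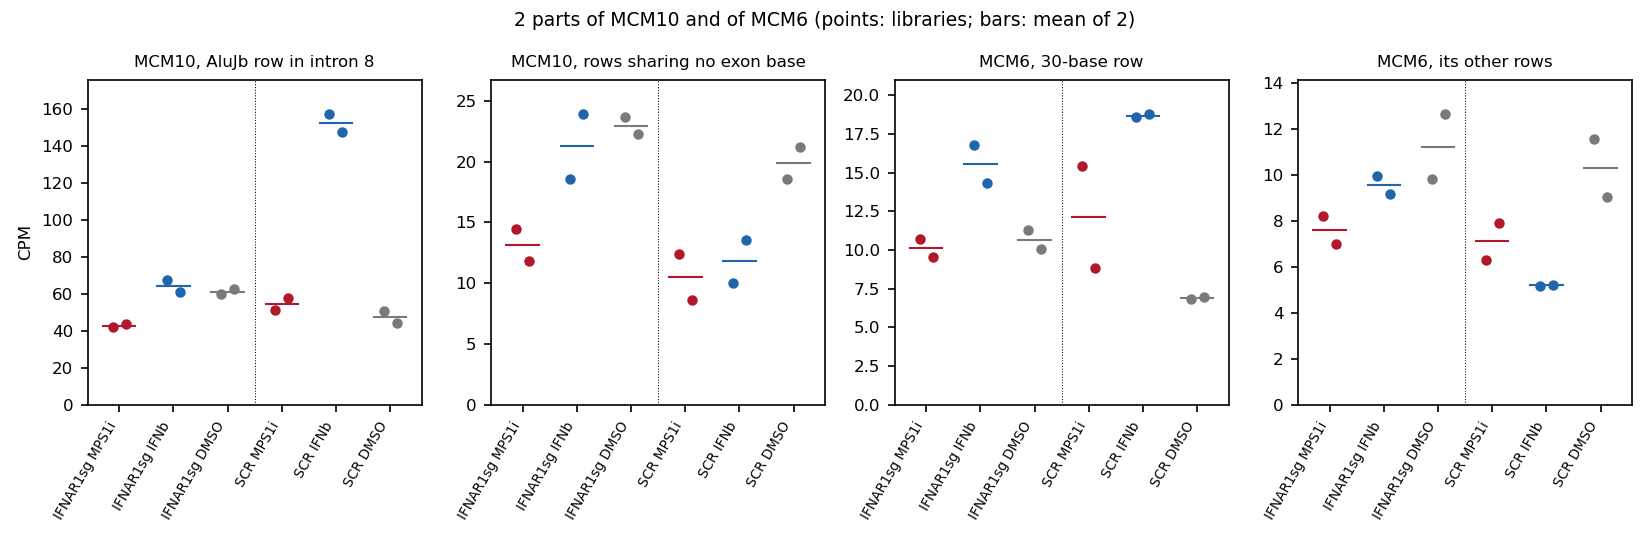
CPM by library (vertical axes, from 0) of the AluJb row and the rows sharing no exon base of MCM10, and of the 30-base row and the other rows of MCM6; points are libraries and bars means of 2. In SCR IFNb cells the AluJb row stands at 157 and 148 CPM and the 30-base row at 18.6 and 18.8 CPM, above SCR DMSO, while the other rows of both genes lie below SCR DMSO.

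In IFNAR1sg cells IFNb gave no call. MCM5 had 36.8 and 32.1 CPM with IFNb and 32.6 and 33.6 CPM with DMSO in these cells (0.06 ± 0.17, adjusted p = 0.950). MCM10 had 18.6 and 23.9 CPM with IFNb and 23.7 and 22.3 CPM with DMSO (-0.11 ± 0.19, adjusted p = 0.908). Both pairs of groups overlapped. MCM7, a ring subunit, had 4.65 and 5.14 CPM with IFNb and 2.37 and 2.74 CPM with DMSO (0.92 ± 0.44, adjusted p = 0.421). By edgeR 0 of 7 were called, 1 had an unadjusted p under 0.05 (MCM7) and DESeq2 called 0, where 1.33% of all gene sums were called. The change in IFNAR1sg minus that in SCR was called for MCM5 (1.21 ± 0.29, adjusted p = 2.72e-04), 1 of 7, where 33.8% of all gene sums were called, 29.7% in this direction, with a median of 0.56. Without the second SCR IFNb library this difference was 0.67 (adjusted p = 0.0852), and with exon-sharing rows added it was 0.13 (adjusted p = 0.642).

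Adding the exon-sharing rows turned several of these directions round. With IFNb in SCR cells MCM10 then had 179 and 169 CPM, against 72.4 and 70.2 CPM with DMSO, and was called higher (1.28 ± 0.11, adjusted p = 6.21e-13), while its sum without those rows had fallen. MCM2 (1.22 ± 0.16, adjusted p = 9.65e-09) and MCM4 (0.72 ± 0.11, adjusted p = 9.63e-07) were called higher; MCM6, which has no exon-sharing row, was called as before (0.47 ± 0.19, adjusted p = 0.0450). The 43256-base row that lies mostly outside MCM2 had 35.0 and 46.8 CPM in SCR IFNb cells, against 11.4 and 18.2 CPM in SCR DMSO cells (1.47 ± 0.24, adjusted p = 7.2e-07), so part of the value of MCM2 comes from RNA that cannot be assigned to the gene. MCM5 was not called (0.09 ± 0.13, adjusted p = 0.623). These 4 of 7 called higher and 0 lower stand beside 46.6% of 17218 such sums called, 18.2% higher and 28.4% lower. Exon-sharing rows held 91.2% and 91.0% of the members' reads in the SCR IFNb libraries, 83.7% and 85.9% in SCR MPS1i, against 81.1% and 80.6% in SCR DMSO. The part of the adjoining exons in these values was not tested.

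**Figure D3:**
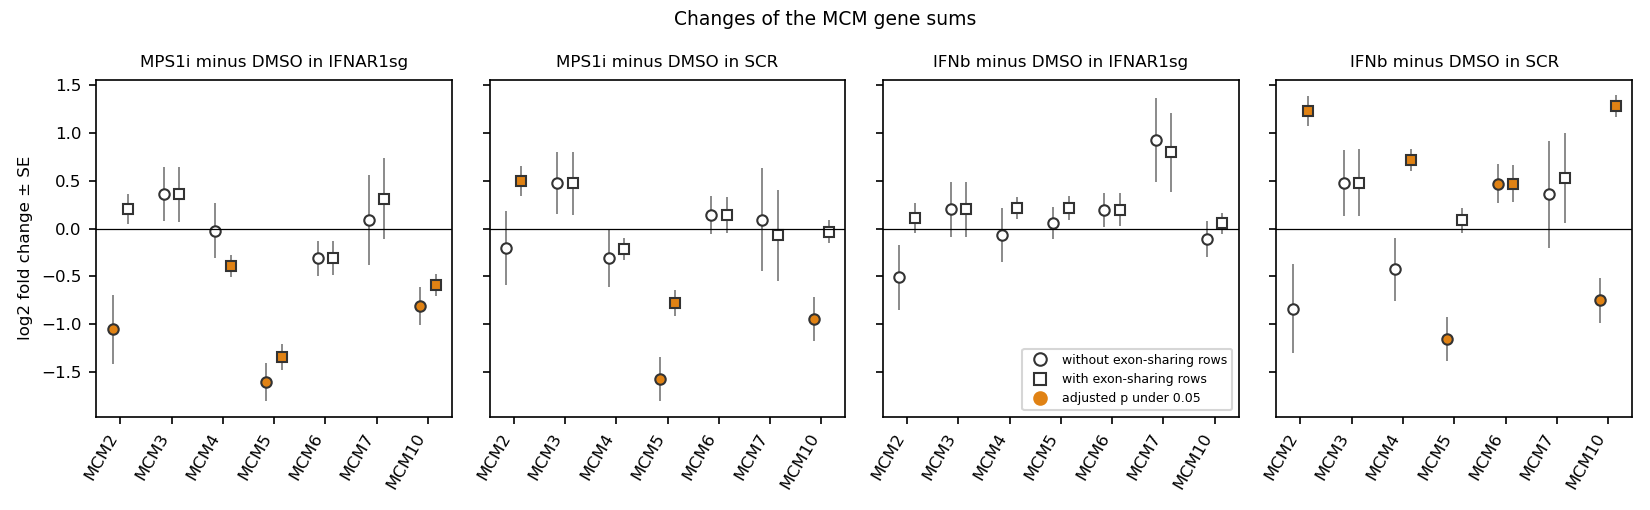
log2 fold change ± SE (vertical axis) of the 7 genes in 4 comparisons; circles are sums without and squares sums with exon-sharing rows, and filled symbols have an adjusted p under 0.05. With IFNb in SCR cells MCM10 lies at -0.75 without and at 1.28 with those rows, and no symbol is filled for IFNb in IFNAR1sg cells.

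With MPS1i in SCR cells, MCM10 had 68.5 and 70.8 CPM in the sum with exon-sharing rows, against 72.4 and 70.2 CPM with DMSO, and was not called (-0.03 ± 0.12, adjusted p = 0.851). MCM5 stayed lower (-0.78 ± 0.13, adjusted p = 8.24e-06) and MCM2 was called higher (0.50 ± 0.16, adjusted p = 0.0111), where 40.1% of such sums were called, 24.3% higher and 15.7% lower. In IFNAR1sg cells MCM5 (-1.34 ± 0.13, adjusted p = 4.52e-11), MCM10 (-0.59 ± 0.11, adjusted p = 5.29e-05) and MCM4 (-0.39 ± 0.12, adjusted p = 0.00586) were called lower with MPS1i, 3 of 7, where 41.7% of such sums were called and 14.9% were called lower. With IFNb in IFNAR1sg cells edgeR called 0 of 7 and 0 had an unadjusted p under 0.05, where 2.25% were called. The difference between genotypes in the change with IFNb was called for MCM10 (-1.23 ± 0.16, adjusted p = 6.48e-08), MCM2 (-1.12 ± 0.22, adjusted p = 1.07e-04) and MCM4 (-0.51 ± 0.16, adjusted p = 0.0142), 3 of 7, where 29.9% were called and 10.5% in this direction. The value of MCM2 again includes the row mostly outside it (-1.46 ± 0.34, adjusted p = 0.00215), and for MCM5 the difference was not called in these sums (0.13 ± 0.18, adjusted p = 0.642). For MPS1i this difference was called in 0 of 7 by edgeR, with 2 at an unadjusted p under 0.05 (MCM10 and MCM5), where 1.35% were called.

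Single rows showed which stretches moved, though rows of the same gene are not independent of each other. With IFNb in SCR cells 17 of the 32 tested rows were called, 10 higher and 7 lower, where 33% of 89111 rows were called, 15% higher and 18.1% lower. Of the 10 tested exon-sharing rows 8 were called higher and 1 lower, where 45.1% of such rows in the whole table were called higher and 5.42% lower. Their median was 0.91, beside 0.73 for all exon-sharing rows. Of the 22 others 2 were called higher and 6 lower, where 11.3% of such rows were called higher and 19.6% lower, with medians of -1.30 and -0.54. The count of 17 fell without the second SCR DMSO library or the first SCR IFNb library, and to 10 by DESeq2. By DESeq2 the rows beginning at chr10:13183726, chr22:35416537 and chr22:35418689 lost their calls (adjusted p = 0.0712, 0.0855 and 0.113). The other rows lost had no recorded adjusted p by DESeq2.

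The AluJb row of MCM10 had 157 and 148 CPM in SCR IFNb cells, against 50.7 and 44.4 CPM in SCR DMSO cells (1.68 ± 0.16, adjusted p = 1.18e-13). In IFNAR1sg cells it had 67.4 and 61.3 CPM with IFNb and 59.7 and 62.6 CPM with DMSO (0.07 ± 0.16, adjusted p = 0.953), and the 2 changes differed by -1.61 ± 0.23 (adjusted p = 3.87e-07). Further along the same intron, the 2368-base row chr10:13183726-13186093, which shares no exon base, had 2.43 and 4.61 CPM in SCR IFNb cells, against 6.27 and 9.51 CPM in SCR DMSO cells. This row moved the other way (-1.15 ± 0.42, adjusted p = 0.0235), though not past the threshold without the second SCR DMSO library (-0.79, adjusted p = 0.239), without the first SCR IFNb library (-0.73, adjusted p = 0.318) or by DESeq2 (-1.13, adjusted p = 0.0712). The AluSz row of MCM4 had 396 and 341 CPM in SCR IFNb cells, against 238 and 199 CPM in SCR DMSO cells (0.75 ± 0.14, adjusted p = 1.71e-05). In MCM2 the row chr3:127606817-127607106, which begins on the last base of an exon and names a MER102b repeat, had 21.9 and 22.8 CPM in SCR IFNb cells, against 7.36 and 10.1 CPM in SCR DMSO cells (1.36 ± 0.26, adjusted p = 3.37e-05). These 4 rows were singled out after their values were seen.

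Intron 6 of MCM5 held rows of both directions. The row chr22:35408563-35408969 had 37.1 and 36.6 CPM in SCR IFNb cells, against 25.5 and 20.3 CPM in SCR DMSO cells (0.68 ± 0.21, adjusted p = 0.00905). It was not called without the second SCR DMSO library (0.57, adjusted p = 0.0915) or the first SCR IFNb library (0.71, adjusted p = 0.0570), nor without TMM factors (0.36, adjusted p = 0.164). The next row, chr22:35408980-35409408, names an AluJr repeat and shares no exon base; it had 0 and 2 reads in SCR IFNb cells, against 23 and 16 reads in SCR DMSO cells (adjusted p = 0.00380, and 0.131 without the first SCR IFNb library). Further on, the row chr22:35410008-35410359, which shares 2 exon bases but begins and ends inside the intron of the principal transcript, had 4.87 and 6.15 CPM in SCR IFNb cells, against 16.5 and 15.2 CPM in SCR DMSO cells (-1.52 ± 0.32, adjusted p = 7.93e-05). It was the 1 exon-sharing row called lower. The introns of MCM7 host the microRNA genes MIR25, MIR93 and MIR106B. Its row chr7:100093402-100093536 overlaps none of them and lies in intron 13, directly before the next exon. How reads reaching into that exon were assigned is not stated. The row held 91 of the 212 reads of MCM7 in rows sharing no exon base. It had 6 and 4 reads in SCR IFNb cells, against 2 and 1 reads in SCR DMSO cells (adjusted p = 0.0247), counts too low for a precise fold. Its call was lost without the first (adjusted p = 0.0685) or second (0.114) SCR DMSO library or the first SCR IFNb library (0.170).

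**Figure D4:**
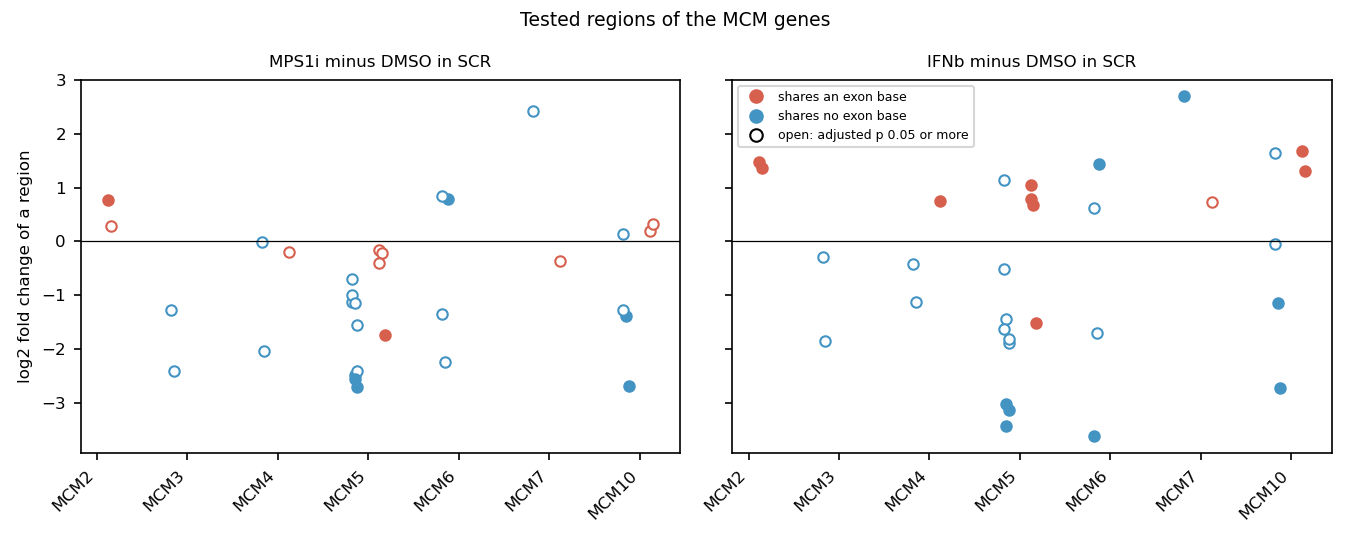
log2 fold change (vertical axis) of each of the 32 tested rows, or regions, of the 7 genes, with MPS1i (left) and IFNb (right) in SCR cells; red rows share an exon base, blue rows do not, and open circles have an adjusted p of 0.05 or more. With IFNb 8 of the 10 red circles are filled above 0, and 6 of the 22 blue circles are filled below it.

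With MPS1i in SCR cells 8 of 32 rows were called, 2 higher and 6 lower, where 17.5% of all rows were called, 9.5% higher and 8% lower. The MCM5 row at chr22:35410008-35410359 had 5.81 and 3.88 CPM in SCR MPS1i cells, against 16.5 and 15.2 CPM in SCR DMSO cells (-1.74 ± 0.31, adjusted p = 7.65e-06). The 2368-base row of MCM10 had 4.55 and 1.76 CPM in SCR MPS1i cells, against 6.27 and 9.51 CPM in SCR DMSO cells (-1.39 ± 0.40, adjusted p = 0.00766; 0.364 without the second SCR MPS1i library and 0.141 without the second SCR DMSO library). The AluJb row of the same intron had 51.1 and 57.6 CPM in SCR MPS1i cells, against 50.7 and 44.4 CPM in SCR DMSO cells, with no call (0.20 ± 0.17, adjusted p = 0.441). The 2 rows called higher were the 43256-base row of MCM2 (0.77 ± 0.24, adjusted p = 0.0161) and the 30-base row of MCM6 (0.78 ± 0.28, adjusted p = 0.0419), neither of which was called by DESeq2 (adjusted p = 0.0813 and 0.109). The MCM2 row lost its call without the first SCR DMSO library (0.50, adjusted p = 0.239) or the second SCR MPS1i library (0.59, adjusted p = 0.237). The MCM6 row lost it without the first (0.79, adjusted p = 0.138) or second (0.81, adjusted p = 0.120) SCR DMSO library, the first SCR MPS1i library (0.42, adjusted p = 0.520) or the first IFNAR1sg DMSO library (0.76, adjusted p = 0.0594). The count of 8 fell to 4 by DESeq2. Beside the 2 rows called higher, the rows lost had no recorded adjusted p by DESeq2. The count also fell without any 1 of the SCR DMSO or SCR MPS1i libraries.

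In IFNAR1sg cells 14 of 32 rows were called with MPS1i, 1 higher and 13 lower, where 17.3% of all rows were called, 9.41% higher and 7.85% lower. Of the 13, 9 lay in MCM5 and 3 in MCM10, so the count is mostly that of a single gene and not of separate changes. The MCM5 row at chr22:35410008-35410359 had 3.47 and 2.42 CPM with MPS1i, against 15.1 and 15.8 CPM with DMSO (-2.39 ± 0.31, adjusted p = 3.39e-09), and the row at chr22:35408563-35408969 had 13.4 and 10.1 CPM with MPS1i, against 23.1 and 23.7 CPM with DMSO (-0.997 ± 0.218, adjusted p = 5.38e-04). In both, the groups were far apart relative to their spread. In intron 8 of MCM10 the AluJb row (-0.51 ± 0.16, adjusted p = 0.0216) and the 2368-base row (-1.11 ± 0.36, adjusted p = 0.0207) were both called lower in these cells. Both calls were lost without either of the IFNAR1sg DMSO libraries. The count of 14 fell without the first or the second IFNAR1sg DMSO library and without the second IFNAR1sg MPS1i library. By DESeq2 it fell to 7, and some of the rows lost had no recorded adjusted p there. With IFNb in IFNAR1sg cells edgeR called 0 of 32 rows, 2 had an unadjusted p under 0.05 and DESeq2 called 0, where 0.679% of all rows were called. The difference between genotypes in the change with IFNb was called in 4 of 32 rows, 2 in each direction, where 12.2% of all rows were called, 7.05% higher and 5.11% lower; for MPS1i edgeR called 0, with 5 at an unadjusted p under 0.05, where 0.0617% were called.

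Opposite each of the 7 genes lay 1 long row with reads on the other strand, between 9279 bases (MCM7) and 51908 bases (MCM10) long, that no gene of its own strand overlapped. The row opposite MCM7 fills the gap between COPS6 and AP4M1, both genes of its strand. Read along their own strand, the rows opposite MCM2 and MCM4 end just upstream of the starts of TPRA1 and PRKDC, genes of that strand. Per length these rows held 11.3 reads per kb at MCM10, 15.8 at MCM6, 22.3 at MCM2, 43.8 at MCM5, 59.3 at MCM3, 211 at MCM7 and 234 at MCM4. At MCM3, MCM4 and MCM7 this was more than in the gene's own rows sharing no exon base. The labels and notes do not state the strand setting of the counting.

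With IFNb in SCR cells all 7 opposite rows were called higher, where 36.6% of 9023 rows of this kind (opposite a gene, on no gene's strand and at least as long as the shortest of the 7) were called higher and 2.4% lower. Opposite MCM7 there were 57.2 and 54.8 CPM in SCR IFNb cells, against 16.6 and 19.0 CPM in SCR DMSO cells (1.65 ± 0.20, adjusted p = 4.75e-10). Opposite MCM10 there were 17.7 and 21.2 CPM in SCR IFNb cells, against 6.0 and 7.13 CPM in SCR DMSO cells (1.57 ± 0.29, adjusted p = 1.57e-05). Opposite MCM4 there were 117 and 148 CPM in SCR IFNb cells, against 60.5 and 97.3 CPM in SCR DMSO cells (0.75 ± 0.18, adjusted p = 7.49e-04). The other changes were 1.40 ± 0.33 (MCM2), 1.07 ± 0.23 (MCM3), 1.01 ± 0.29 (MCM6) and 0.73 ± 0.24 (MCM5), and the median was 1.07, beside 0.67 for rows of this kind. The count fell to 4 without TMM factors and in a fit of only the groups compared, where MCM4 (0.43 and 0.53), MCM5 (0.41 and 0.51) and MCM6 (0.69 and 0.79) were not called. MCM5 and MCM6 also lost their calls without the first SCR DMSO library (0.67 and 0.70) or the second SCR IFNb library (0.69 and 0.83).

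**Figure D5:**
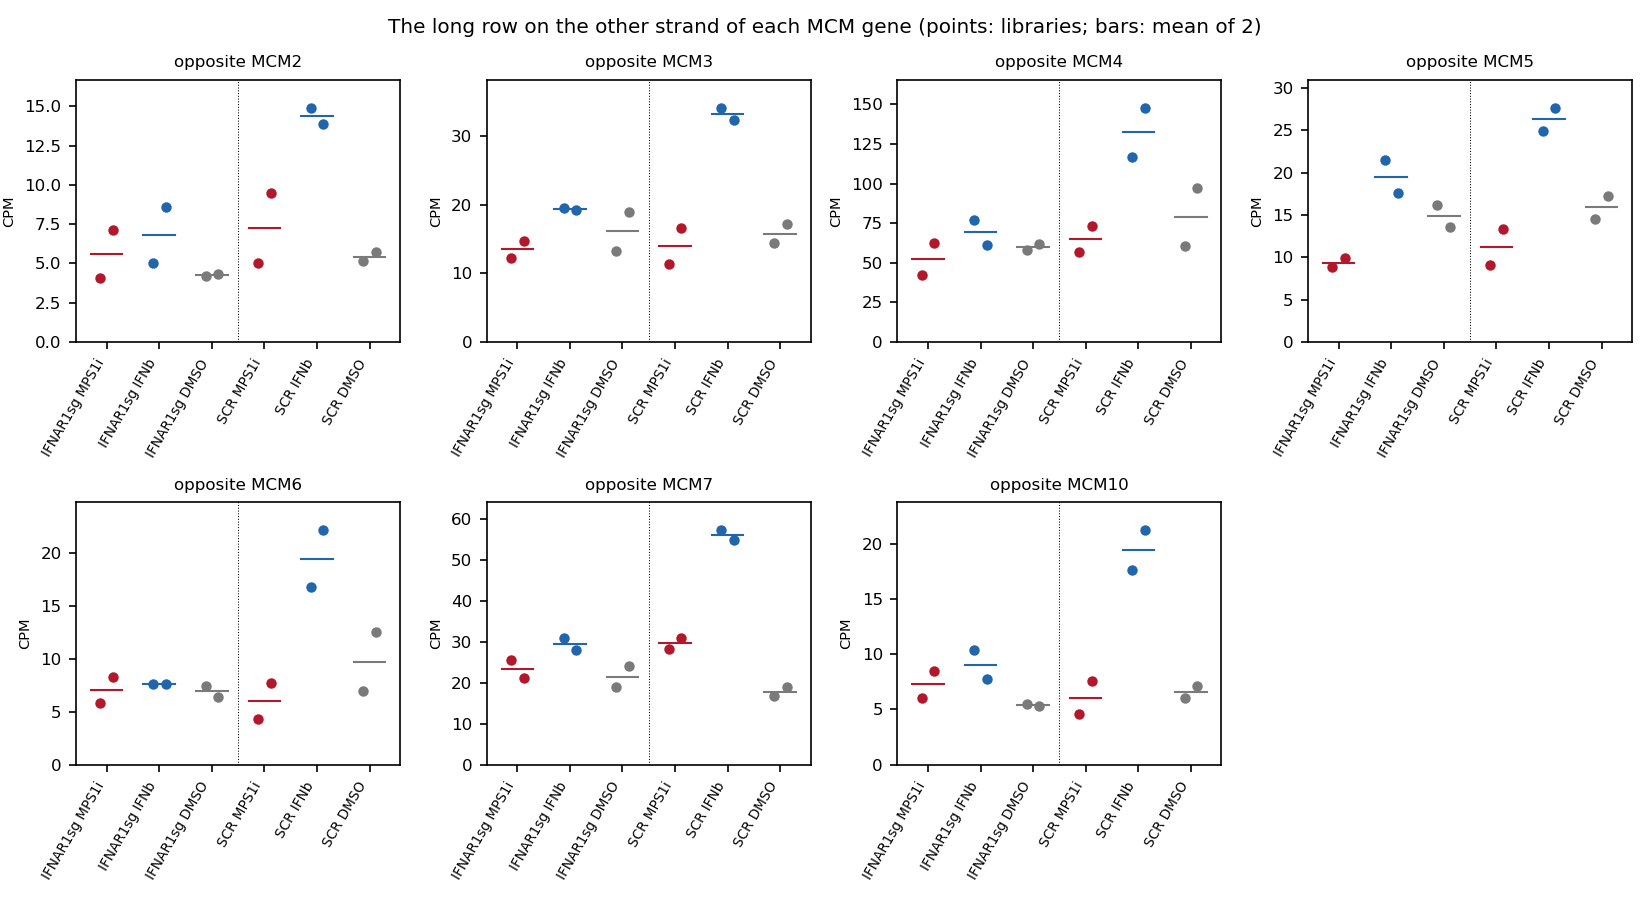
CPM by library (vertical axes, from 0) of the long row opposite each of the 7 genes; points are libraries and bars means of 2. Opposite MCM7 the SCR IFNb libraries (blue, right of the dotted line) stand at 57.2 and 54.8 CPM, against 16.6 and 19.0 CPM in SCR DMSO.

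In IFNAR1sg cells edgeR called 0 of 7 opposite rows with IFNb, 3 had an unadjusted p under 0.05 (MCM10, MCM7 and MCM2) and DESeq2 called 0, where 1.55% of rows of this kind were called higher. The difference between genotypes was called for MCM7 (-1.21 ± 0.28, adjusted p = 0.00223), 1 of 7, where 9.53% were called lower. With MPS1i the row opposite MCM7 had 28.3 and 31.0 CPM in SCR MPS1i cells, against 16.6 and 19.0 CPM in SCR DMSO cells (0.74 ± 0.21, adjusted p = 0.00725), 1 of 7, where 17.3% were called higher. That call was lost without the first SCR DMSO library (0.68, adjusted p = 0.0656) or the second SCR MPS1i library (0.68, adjusted p = 0.108). The row opposite MCM5 had 8.81 and 9.93 CPM in IFNAR1sg MPS1i cells, against 16.2 and 13.6 CPM in IFNAR1sg DMSO cells (-0.66 ± 0.24, adjusted p = 0.0498), 1 of 7, where 0.465% were called lower. It was not called by DESeq2 (-0.71, adjusted p = 0.0742), nor without any single library other than the first SCR DMSO library, with changes between -0.79 and -0.55.

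Other replication genes were summed the same way, without exon-sharing rows. With MPS1i in SCR cells 3 of 5 MCM-related genes were called lower and 0 higher (median -0.63), where 22.2% of all gene sums were called lower and 21.7% higher, with a median of 0.05. MCM3AP, named for binding MCM3, gave -0.998 ± 0.161, and MCM8 and MCM9, paralogs that act in recombination repair, gave -0.88 ± 0.24 and -0.63 ± 0.27 (adjusted p = 6.11e-08, 0.00152 and 0.0497). MCMBP, which binds MCM proteins, was not called (-0.39 ± 0.20, adjusted p = 0.104). Against that same background, 5 of 8 tested genes of origin recognition and licensing were called lower and 0 higher (median -0.55), among them the origin recognition subunits ORC3 (-1.40 ± 0.15), ORC2 (-0.95 ± 0.12), ORC1 (-0.61 ± 0.23) and ORC4 (-0.55 ± 0.22). Of 11 genes of helicase activation 5 were called lower and 0 higher (median -0.33). CDC45, which joins the ring in the active helicase, gave -1.44 ± 0.26, GINS1, of the GINS complex, -0.76 ± 0.16, and the firing factors TOPBP1 and TICRR -0.98 ± 0.15 and -0.73 ± 0.17.

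Of 24 fork and polymerase genes 14 were called lower and 2 higher with MPS1i in SCR cells (median -0.54), where 22.2% of all gene sums were called lower and 21.7% higher. WDHD1, which couples polymerase alpha to the helicase, gave -1.70 ± 0.18, the catalytic subunits POLE and POLA1 -1.41 ± 0.16 and -1.27 ± 0.16, and RPA1, which coats single-stranded DNA, -1.31 ± 0.18. Of 20 regulators of the G1 to S step 7 were called lower and 5 higher (median -0.00). RBL1, a pocket protein that represses E2F targets, gave -2.05 ± 0.16, LIN9, a subunit of the DREAM and MuvB complexes, -1.38 ± 0.16, and the activator E2F2 -1.90 ± 0.31. CDKN1A, which encodes the CDK inhibitor p21, had 20.03 ± 0.082 CPM in SCR MPS1i cells, against 3.72 ± 0.33 CPM in SCR DMSO cells (SD, n = 2 each), a rise of 2.42 ± 0.29 (adjusted p = 1.16e-13). In IFNAR1sg cells the counts lower and higher with MPS1i were 2 and 0 of the MCM-related genes, 5 and 1 in licensing, 5 and 0 in activation, 12 and 3 at the fork and 4 and 2 among the regulators, with medians of -0.31, -0.64, -0.39, -0.46 and 0.30. Of all gene sums 19.7% were called lower and 26.5% higher in this comparison, with a median of 0.15, so the 4 of 20 regulators called lower were near the background.

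With IFNb in SCR cells the counts lower and higher were 3 and 0 of the MCM-related genes, 4 and 1 in licensing, 6 and 2 in activation, 13 and 3 at the fork and 8 and 1 among the regulators. Their medians lay between -0.87 and -0.39. Of all gene sums 40.2% were called lower and 7.81% higher, with a median of -0.61, so the 8 of 20 regulators called lower equal the background, the other 4 lists lie little above it, and nothing particular to replication genes is read from these counts. ORC3 (-1.43 ± 0.17), POLA1 (-1.59 ± 0.18) and E2F3, an activator of the E2F family (-1.29 ± 0.14), were lower. POLE3, an accessory subunit of polymerase epsilon, was higher (1.04 ± 0.10, adjusted p = 1.54e-16), as was DBF4B, an activator of the CDC7 kinase (0.76 ± 0.16, adjusted p = 1.13e-05). In IFNAR1sg cells POLE3 was the only gene of these 5 lists called with IFNb (0.52 ± 0.10, adjusted p = 2.85e-04). The MPS1i and IFNb comparisons of a genotype share its DMSO libraries, so their changes are not independent.

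By pattern over the 12 libraries, genes near the mean profile of the 7 included ANKH, THUMPD3, CHP1 and PIR, at a root mean square difference of 0.0989 to 0.113 in centred log2(CPM + 1), among 6994 genes of at least 10 CPM (median 0.384). The members themselves lay at 0.253 (MCM6) to 0.611 (MCM5) from that mean. The 4 genes were picked for small distances, so nothing is read from their lying closer than the members. MCM2, MCM3, MCM4 and MCM7 averaged 4.32, 7.31, 7.33 and 2.82 CPM, under the 10 CPM asked of the other genes.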

How the data were processed

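J2 immunoprecipitates of 12 libraries were compared, 2 for each of 6 groups. The deposited values are unnormalized read counts per stranded row, 3739443 to 7430687 per library. The tools named per the submitters' processing notes, without versions or roles, are STAR, featureCounts, HOMER, cutadapt, Trimmomatic and Trim Galore, with the builds GRCh38 and hg38; the settings for strand, overlaps and multi-mapping reads are not stated there. Stranded total RNA libraries were converted for DNBSEQ sequencing, per the labels' protocols.

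Rows were assigned to GENCODE genes of hg38 by strand and body. Gene sums without exon-sharing rows (15844), sums with them (17218) and single rows (89111) that passed filterByExpr (minimum count 10, minimum total 15) were fitted with edgeR 4.0.16 in R 4.3.3 (glmQLFit, glmQLFTest), with 1 coefficient per group, 6 residual degrees of freedom and TMM factors from the rows. Calls have a Benjamini-Hochberg adjusted p under 0.05 over all features of a fit. SEs come from the fitted weights and p-values from the F-test. The variance behind both was moderated over all features, with prior degrees of freedom of 140.8 for gene sums without exon-sharing rows and 72.94 for single rows. On simulated counts for MPS1i in SCR cells, 67.5% of 200 changed gene sums were recovered with 4.26% false calls, and 23.5% of 200 changed rows with 4.08%. Recovery was 81% of gene sums at a log2 change of 2 and 54% at 1, and 33% and 14% of rows. Alternatives were DESeq2 1.42.0, its size factors, no TMM factors, no or a stricter filter, other row sets, only the groups compared, a replicate block and leaving out each library. Replicates differed by more than sampling noise (chi-square per gene 1.61 to 2.98).

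The members and lists were chosen with earlier results of these data known. All 7 members are named throughout; from each other list up to 4 genes with the smallest p with MPS1i, and up to 2 with IFNb, in SCR cells could be named. Single rows, POLE3 in IFNAR1sg cells and the rows opposite the genes were singled out after their values were seen. Of the 5 genes most like the members over the 12 libraries, 1 is not reported here.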

Additional observations from a re-analysis of the deposited data

Results flagged for a closer look

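Groups of 2 libraries allow no test for outlying samples. The 9 results that follow were picked out because the change with IFNb differed between genotypes by the interaction test of edgeR (change in IFNAR1sg minus change in SCR). In sums without exon-sharing rows this was MCM5 (1.21 ± 0.29, adjusted p = 2.72e-04), which was not called with those rows (0.13 ± 0.18, adjusted p = 0.642). In sums with those rows the differences were -1.12 ± 0.22 for MCM2 (1364 of whose 2509 reads lie in the row mostly outside the gene), -0.51 ± 0.16 for MCM4 and -1.23 ± 0.16 for MCM10. The row opposite MCM7 differed by -1.21 ± 0.28. Among single rows the AluJb row of MCM10 at 13183100 differed by -1.61 ± 0.23 and the 43256-base row of MCM2 at 127554992 by -1.46 ± 0.34. In MCM5 the AluJr row at 35408980 differed by 3.87 ± 1.26, and by 2.91 (adjusted p = 0.111) without the first SCR IFNb library. The MCM5 row at 35410008 differed by 1.56 ± 0.41, and was not called without the first SCR IFNb library (1.40, adjusted p = 0.0661) or the second IFNAR1sg IFNb library (1.31, adjusted p = 0.0622). The 2 SCR IFNb libraries enter each of these differences, and they had the fewest rows with reads; the part of that in the differences was not tested.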

How the results depend on the processing

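MCM5 and MCM10 kept their direction and call with MPS1i in IFNAR1sg cells, and MCM5 in SCR cells, under every alternative run. The replicate numbers do not pair the libraries (15 correlations between -0.050 and 0.078), and a replicate block changed no call (MCM5 with MPS1i in SCR cells -1.57). With DESeq2, called member rows were 4 (MPS1i in SCR), 7 (MPS1i in IFNAR1sg) and 10 (IFNb in SCR), where rows with no recorded adjusted p count as not called. The row opposite MCM5 was not called with DESeq2 (count 0), nor with a minimum of 24 reads or without both SCR IFNb libraries (0 each). With DESeq2 MCM7 turned to 0.0047 in the MPS1i difference between genotypes. In a fit of only the groups compared, 10 member rows and 4 opposite rows were called with IFNb in SCR. Without TMM factors, 4 opposite rows were called with IFNb in SCR and 2 genes (MCM5 and MCM10) in the IFNb difference between genotypes; MCM6 (-0.027) and MCM7 (-0.068) with MPS1i in SCR, MCM7 with MPS1i in IFNAR1sg (-0.048), MCM5 (0.0086) and MCM7 (0.020) in the MPS1i difference and MCM3 (0.00027) and MCM6 (0.0067) in the IFNb difference changed sign, all uncalled. Scaled to rows sharing no exon base, chosen after seeing the data, MCM4 with MPS1i in IFNAR1sg was 0.0012. Without its 30-base row, also chosen after seeing the data, MCM6 was -0.52 (MPS1i in SCR), -0.99 (IFNb in SCR), -0.24 (IFNb in IFNAR1sg) and 0.75 (IFNb difference). With exon-sharing rows, 3 genes were called in the IFNb difference, and these changed sign: MCM2 0.50 and MCM7 -0.071 (MPS1i in SCR), MCM2 0.20 (MPS1i in IFNAR1sg), MCM2 1.22, MCM4 0.72, MCM5 0.087 and MCM10 1.28 (IFNb in SCR), MCM2 0.11, MCM4 0.21 and MCM10 0.056 (IFNb in IFNAR1sg), MCM2 -0.0050 (genotypes in DMSO), MCM4 -0.18, MCM7 0.38 and MCM10 -0.56 (MPS1i difference), and MCM2 -1.12, MCM4 -0.51 and MCM10 -1.23 (IFNb difference). Causes were not tested beyond these constructions.

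Leaving out 1 library at a time gave 1 to 3 genes called (MPS1i in SCR), 1 to 4 (IFNb in SCR) and 0 to 1 (IFNb difference); 2 to 8, 4 to 15 and 9 to 17 rows (MPS1i in SCR, MPS1i in IFNAR1sg, IFNb in SCR); and 0 to 1 opposite row with MPS1i in SCR and in IFNAR1sg. Signs changed within these ranges, all of uncalled values: with MPS1i in SCR MCM2 -0.37 to 0.063, MCM4 -0.55 to 0.065 and MCM7 -0.45 to 1.20; with MPS1i in IFNAR1sg MCM4 -0.093 to 0.072 and MCM7 -0.76 to 0.64; with IFNb in SCR MCM7 -0.17 to 1.49; with IFNb in IFNAR1sg MCM5 -0.043 to 0.15, MCM10 -0.31 to 0.062 and MCM4 -0.23 to 0.078; between genotypes in DMSO MCM4 -0.41 to 0.23 and MCM7 -0.24 to 1.44; in the MPS1i difference MCM3 -0.72 to 0.26, MCM4 -0.092 to 0.54, MCM5 -0.25 to 0.14, MCM7 -1.12 to 0.54 and MCM10 -0.12 to 0.34; in the IFNb difference MCM3 -0.91 to 0.071, MCM4 -0.048 to 0.72 and MCM7 -0.58 to 1.10. Depth limits MCM7 and MCM2 most, with 212 and 324 reads in rows sharing no exon base over all libraries.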
